A study of Bos taurus and Ovis aries and Capra hircus with 27 samples.

Results

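A set of 17 goat gene models whose proteins carry the signature of the serpin family were followed in heart, liver and kidney. The models were those in the goat table that had no copy suffix in their identifier, a protein of 350 to 520 residues in the deposited goat protein file, and a match to an 11-residue signature of serpins that ends near the C terminus and holds a fixed phenylalanine at its seventh position. They made up 17 of 22131 goat identifiers, of which 18216 had a protein in that file. Expression values were not used to choose them. The signature occurred in 29 of 18260 proteins. Of these, 8 were left out for their length, 3 for a copy suffix and 1 because it had no row of expression values. The shortest model retained had 376 residues and the longest 507, and the nearest lengths outside the limits were 289 and 667.

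The goat libraries came from animals that the labels call indigenous, of about 3 years, sampled at Ya'an in Sichuan province, and the study's methods describe 3 unrelated adult females per population. No treatment was applied. Heart, liver and kidney were each represented by 3 libraries, which makes 9 of the 27 libraries in the series. The paper states that the 3 heart entries duplicate other entries of the same samples, and does not say this of liver or kidney. Whether heart was handled apart from the other organs was not tested. Levels are given in FPKM, a fragment count divided by transcript length and library size, and in the absence of the counts themselves sequencing depth is unknown here. Summed FPKM lay between 574638 and 828807 per library. The comparison between tissues asked in which of the 3 organs each model was expressed, and how far the replicates supported the difference. Marker genes of the 3 organs could not be looked up, because the goat identifiers were not paired with gene symbols, and the tissue labels were therefore not checked against markers.

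Serpins are a family of proteins that mostly inhibit proteases. An inhibitory serpin offers an exposed loop near its C terminus to the protease, which cuts it, and the hinge of the loop then inserts into the body of the protein and traps the enzyme. The liver is the main source of the serpins of blood plasma, which control coagulation, fibrinolysis and complement. Some family members have lost inhibition and work as carriers of hormones or as chaperones, and one branch lacks the classical secretion signal and acts mainly inside cells.

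Names were not paired with the identifiers, so likeness to known serpins was looked for with short peptides that are textbook features of named family members. Each was searched as an exact string in all 18260 proteins. In all, 13 peptides were searched, and they are given here because they tell which known serpin a model resembles. They were chosen after the proteins and their levels had been viewed, so the matches are a description and not an independent search.

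AGRSLN, at the reactive site of antithrombin, was found only in GOAT_ENSBTAP00000005713. SRMSLSS, at the reactive site of α2-antiplasmin, was found only in GOAT_ENSBTAP00000027793. FEVQQPF, which follows the reactive site of C1 inhibitor, was found only in GOAT_ENSBTAP00000021638. YHLNQPF, from pigment epithelium-derived factor (PEDF), was found only in GOAT_ENSBTAP00000012804. These last 2 peptides have the form of the first 7 residues of the signature that chose the models. Their matches are therefore not independent of that choice. ARSSPPW, from protease nexin-1, was found only in GOAT_ENSP00000415786. GRTGHGG, from plasminogen activator inhibitor 2, was found only in GOAT_ENSBTAP00000031243. RILQHKDE, from maspin, was found only in GOAT_ENSP00000372221, and the C-terminal end HDFEEL of neuroserpin only in GOAT_ENSP00000397373. RDEL, the signal that retains the collagen chaperone HSP47 in the endoplasmic reticulum, ended 5 proteins, of which GOAT_ENSBTAP00000039506 was the only one among the models. HPIIQ, from thyroxine-binding globulin, occurred in 2 proteins, one of them GOAT_ENSP00000329374. A peptide of plasminogen activator inhibitor 1, SARMAPE, lay in the signature-bearing protein that had no expression values. Peptides of angiotensinogen (VYIHPFHL) and α1-antitrypsin (AIPMSIP) were found in 0 proteins of the file, which says only that these letters were not there. A match of this kind is a likeness and not an assignment of the gene.

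The label of the group was compared with features outside the rule, the first of which was picked after the proteins had been viewed and is therefore a description. The hinge of inhibitory serpins was searched as a glycine, then threonine, serine, alanine or valine, then glutamate, lysine or glutamine, then alanine, valine or glycine, and then 2 small residues, within 45 residues before the signature. It was present in 12 of the 17 models (70.6%), against 2.11% of 3129 models of the same length range that held it anywhere. The models without it were those resembling PEDF, HSP47, thyroxine-binding globulin and maspin, which are known as serpins without inhibitory activity, and GOAT_ENSBTAP00000034997. The last of these fitted the label least. Its median identity to the other 16 models was 23.1%, below the 27.3% to 34.0% of the others, and its closest model shared 26.8% of aligned residues, against 30.2% to 48.1% for the rest. Identity between unrelated proteins was not computed, so whether it is a serpin was not tested. It is reported here as a model with the signature only.

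The models together took a far larger part of the transcriptome in liver than in the other organs. Their share of summed FPKM was 0.875%, 0.796% and 0.790% in liver 1 to 3, 0.0253%, 0.0713% and 0.0919% in kidney, and 0.0127%, 0.0285% and 0.0328% in heart. Every liver library lay above every kidney and heart library, and kidney overlapped with heart, although kidney was above heart in each of the 3 pairs of libraries with the same number. The mean was 0.821% ± 0.047 in liver, 0.0628% ± 0.034 in kidney and 0.0247% ± 0.011 in heart (SD, n = 3 each), which is 13.1 times kidney and 33.3 times heart. The 2-sided exact permutation test gave p = 0.1 for liver against either organ (0.15 after Benjamini-Hochberg adjustment over 3 pairs), the smallest value that 3 libraries against 3 allow, and p = 0.3 for kidney against heart (adjusted 0.3). Paired by number, the 2-sided exact permutation test of the differences gave p = 0.25 for each of the 3 comparisons, the smallest that 3 pairs allow. In tissue samples of this kind, more cells of a type and more RNA per cell cannot be told apart.

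**Figure D1:**
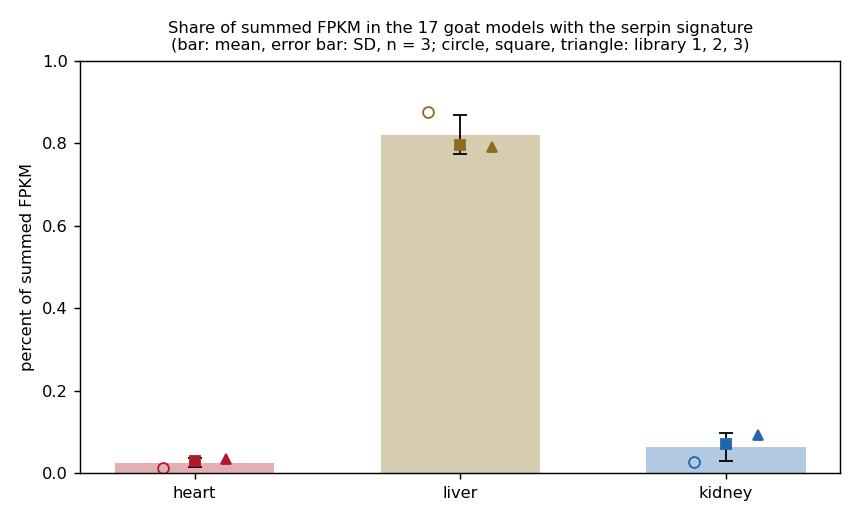
Share of summed FPKM in the 17 models (y axis, percent) by tissue; bars are means, error bars SD over 3 libraries, and points single libraries. The liver libraries lie between 0.790% and 0.875%, and no heart or kidney library exceeds 0.0919%.

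No single model made up the liver share. The most abundant one in liver, GOAT_ENSBTAP00000005713, held 47.1%, 27.2% and 35.3% of the models' summed FPKM in the 3 liver libraries. In heart and kidney the most abundant one was GOAT_ENSBTAP00000021638, the model resembling C1 inhibitor, with 19.4% to 44.0% of the models' sum in heart and 36.3% to 55.7% in kidney.

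Counts of models that differed between tissues rest on limma's moderated test on log2(FPKM + 1), adjusted over all 13634 goat genes with 3 or more of the 9 libraries exceeding 0.5 FPKM. Of the 17 models, 14 passed that filter. Of these, 3 passed through the liver libraries alone and so had to differ, and the counts are a description. Between liver and heart, 8 models were higher in liver, where 19.6% of all genes were, and 3 were higher in heart, where 29.6% were. Between liver and kidney, 7 were higher in liver (13.4% of all genes) and 4 in kidney (51.6%). Between kidney and heart, 6 were higher in kidney (45.3%) and 3 in heart (17.9%). Higher than in both other organs were 7 models in liver (9.59% of all genes), 3 in kidney (34.2%) and 2 in heart (14.5%). The counts for kidney and heart were thus below or near the share over all genes in this fit, whose values were not rescaled between libraries. The median over all tested genes was −0.69 for liver minus kidney and 0.55 for kidney minus heart. With median ratio scaling these medians were −0.01 and 0.04. The shares for liver and kidney may therefore change with scaling, and they are given for this fit only. Counted by libraries without overlap, liver lay above heart for 8 models (24.2% of all genes) and above kidney for 7 (14.1%), heart above liver for 4 (34.4%) and above kidney for 3 (20.8%), and kidney above heart for 8 (51%) and above liver for 2 (53.1%). Over all 17 models, without a filter, the median log2 difference was 0.54 for liver minus heart, 0.00 for liver minus kidney and 0.39 for kidney minus heart, beside 0.00, −0.11 and 0.03 over all 22131 genes.

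**Figure D2:**
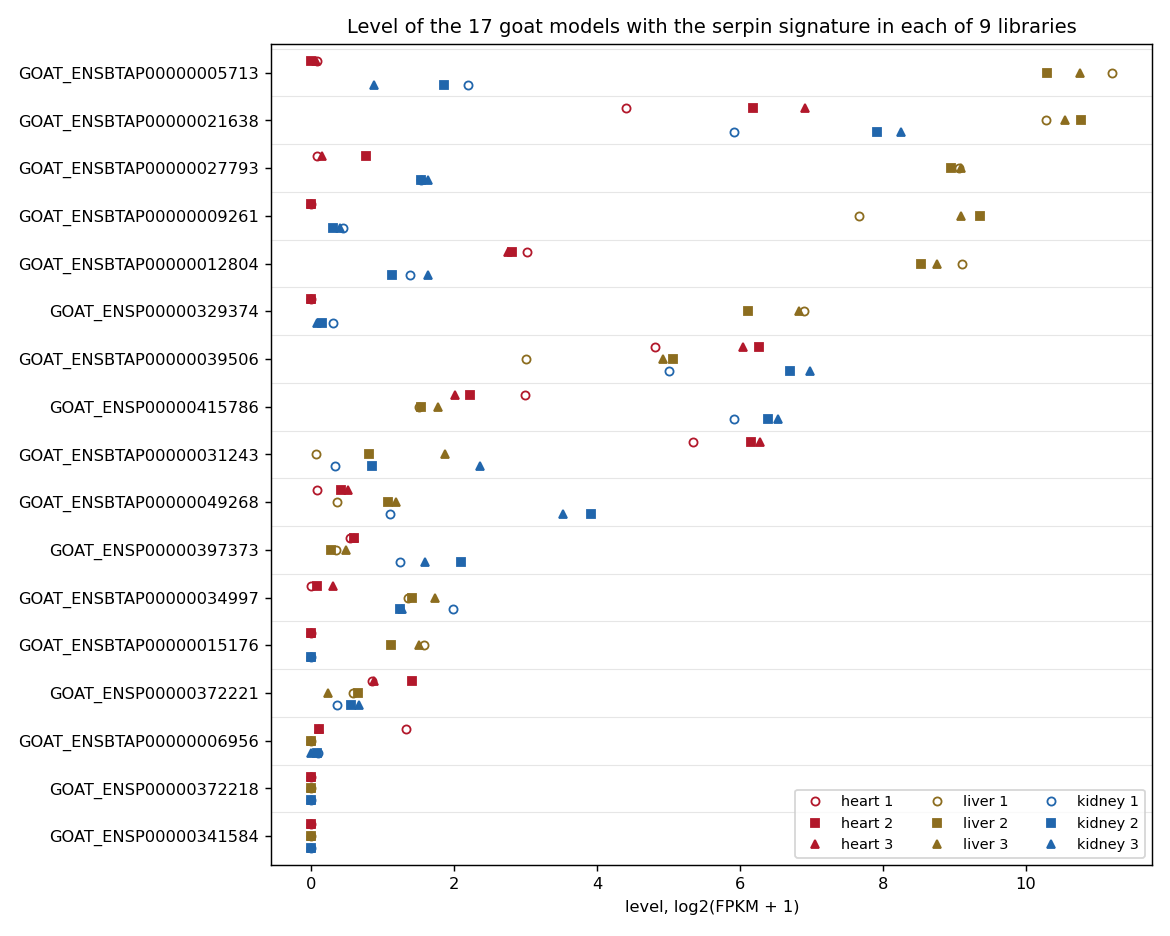
Level of each of the 17 models on the log2(FPKM + 1) scale (x axis) in the 9 libraries; colours are tissues, and open circles, filled squares and filled triangles are libraries 1, 2 and 3. The highest levels are in liver, where 6 models have means from 99.2 to 1785 FPKM, and 2 models are at 0 in every library.

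Of the 7 models elevated in liver, 5 carried a searched peptide, those of antithrombin, α2-antiplasmin, C1 inhibitor, thyroxine-binding globulin and PEDF, and 2 carried none. GOAT_ENSBTAP00000005713 (scaffold 131, 5582571 to 5593081, plus strand) resembled antithrombin, the heparin-activated inhibitor of thrombin and factor Xa. It had 2368, 1258 and 1729 FPKM in liver, 3.58, 2.64 and 0.838 in kidney, and 0.0530, 0 and 0.0480 in heart. Liver was thus 759 times kidney by the means, and kidney lay above heart in every library. The log2 difference was 10.71 ± 0.35 for liver minus heart (SE, limma adjusted p = 1.36e-08), 9.11 ± 0.35 for liver minus kidney (limma adjusted p = 8.46e-08) and 1.60 ± 0.35 for kidney minus heart (limma adjusted p = 0.00293).

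GOAT_ENSBTAP00000027793 resembled α2-antiplasmin, the main inhibitor of plasmin, and GOAT_ENSBTAP00000012804 resembled PEDF, which restrains vessel growth. The 2 models were neighbours on the minus strand of scaffold 1229, at 1137602 to 1143396 and 1117758 to 1125131, 12470 bp apart with 0 other models between them. Their proteins shared 31.7% of aligned residues. GOAT_ENSBTAP00000027793 had 532, 496 and 544 FPKM in liver, 1.91, 1.9 and 2.09 in kidney and 0.0586, 0.693 and 0.106 in heart. Its liver libraries differed by less than those of any other abundant model, with a mean of 524 ± 24.9 (SD, n = 3). Liver differed by 8.71 ± 0.21 on the log2 scale from heart (SE, limma adjusted p = 2.87e-09) and by 7.47 ± 0.21 from kidney (limma adjusted p = 1.58e-08).

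GOAT_ENSBTAP00000012804 had 549, 369 and 431 FPKM in liver, 7.07, 6.0 and 5.73 in heart and 1.61, 1.18 and 2.09 in kidney. It was the one of the liver models with a higher level in heart than in kidney, and all 3 organs were separated without overlap. On the log2 scale the difference was 5.94 ± 0.21 for liver minus heart (SE, limma adjusted p = 2.53e-08), 7.42 ± 0.21 for liver minus kidney (limma adjusted p = 1.66e-08) and −1.48 ± 0.21 for kidney minus heart (limma adjusted p = 0.000275). The neighbouring pair therefore shared liver as the highest organ and had the opposite order of the other two.

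GOAT_ENSBTAP00000021638 (scaffold 429, 131790 to 146080, plus strand) resembled C1 inhibitor, which controls complement, plasma kallikrein and factor XII. It had 1246, 1742 and 1496 FPKM in liver, 59.5, 239.5 and 303 in kidney and 20.1, 71.2 and 119.5 in heart. Liver exceeded kidney only 7.45 times by the means, against 71.8 to 1515 times between liver and the next organ in the 5 other liver models with a mean above 10 FPKM. Liver exceeded the other organs on the log2 scale by 4.71 ± 0.71 against heart (SE, limma adjusted p = 0.000443) and 3.17 ± 0.71 against kidney (limma adjusted p = 0.00347). Kidney and heart overlapped, with a difference of 1.53 ± 0.71 (limma adjusted p = 0.0855). This passed the threshold with the replicate number as a block (limma adjusted p = 0.0105), and without heart 3 (0.0383) or kidney 1 (0.0125). It also passed with libraries scaled to the same summed FPKM (limma adjusted p = 0.0388) and without library 1 of all organs (0.00513). With quantile normalization it did not (limma adjusted p = 0.0643). Median ratio scaling lowered it to 0.85 (limma adjusted p = 0.294, or 0.137 with the block), and it was 0.82 without heart 1 (limma adjusted p = 0.308).

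GOAT_ENSP00000329374 (scaffold 1267, 1205020 to 1208540, minus strand) resembled thyroxine-binding globulin, a carrier of thyroid hormone in plasma. It had 117, 68.0 and 112 FPKM in liver and 0.234, 0.106 and 0.0604 in kidney, and was listed at 0 in all heart libraries. The log2 difference from kidney was 6.43 ± 0.22 (SE). Its closest model by sequence, with 45.3% identity, was GOAT_ENSBTAP00000009261 (scaffold 1665, 59729 to 66480, plus strand), which no peptide marked. That model had 202, 654 and 544 FPKM in liver and 0.364, 0.236 and 0.324 in kidney, and was likewise listed at 0 in heart. The log2 difference from kidney was 8.32 ± 0.38 (SE). Liver 1 was the lowest of the liver libraries. A copy with 75.5% identity lay on the same scaffold, and reads divided between the pair would make these levels uncertain.

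The last of the 7 liver models was weak. GOAT_ENSBTAP00000015176 (scaffold 276, 9554710 to 9587708, plus strand) had 2.0, 1.16 and 1.85 FPKM in liver and was listed at 0 in all 6 libraries of heart and kidney. Like GOAT_ENSBTAP00000009261 and GOAT_ENSP00000329374, it exceeded 0.5 FPKM in the 3 liver libraries alone and so entered the test through the organ where it was high, and no p is given for these 3 models. The 4 other liver models stayed called against both organs when any of the 9 libraries was left out and under every scaling tried. The study's own filter on low values left 2 of the 7 to test.

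A group of 3 models was higher in kidney than in both other organs. GOAT_ENSP00000415786 (scaffold 127, 4679906 to 4709018, minus strand) resembled protease nexin-1, an inhibitor of thrombin and plasminogen activators at the cell surface. It had 59.5, 83.2 and 91.5 FPKM in kidney, 6.96, 3.65 and 3.01 in heart and 1.85, 1.9 and 2.4 in liver, with kidney 17.2 times heart by the means. On the log2 scale it was 3.88 ± 0.28 for kidney minus heart (SE, limma adjusted p = 3.44e-06) and −4.68 ± 0.28 for liver minus kidney (limma adjusted p = 1.13e-06). Heart lay above liver in every library, by a smaller margin (−0.80 ± 0.28 for liver minus heart, limma adjusted p = 0.0390). That call was lost with median ratio scaling (limma adjusted p = 0.0857), and when heart 1 (0.12), heart 2 (0.0592), kidney 2 (0.0572), liver 1 (0.0842), liver 2 (0.0995) or liver 3 (0.0517) was left out.

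GOAT_ENSP00000397373 (scaffold 276, 9226045 to 9254624, minus strand) resembled neuroserpin, an inhibitor of tissue plasminogen activator that is best known from neurons. It lay 300085 bp from the liver model GOAT_ENSBTAP00000015176, with 3 models between them, and the pair shared 37.0% of aligned residues, the closest match of each. It had 1.36, 3.27 and 2.02 FPKM in kidney, 0.448, 0.505 and 0.511 in heart and 0.269, 0.213 and 0.397 in liver. The 3 organs did not overlap. Kidney minus heart was 1.07 ± 0.21 on the log2 scale (SE, limma adjusted p = 0.00168) and liver minus kidney −1.27 ± 0.21 (limma adjusted p = 0.000609). Between liver and heart the difference was −0.20 ± 0.21 (limma adjusted p = 0.456). These closest relatives thus had their highest level in different organs, both at a few FPKM.

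GOAT_ENSBTAP00000049268 (scaffold 1525, 25809 to 32406, plus strand) had 1.15, 14.1 and 10.5 FPKM in kidney, 0.288, 1.10 and 1.28 in liver and 0.0525, 0.333 and 0.428 in heart. Kidney 1 was within the range of liver, so kidney and liver overlapped, whereas kidney and heart did not. The log2 difference was 2.51 ± 0.62 for kidney minus heart (SE, limma adjusted p = 0.00608) and −1.97 ± 0.62 for liver minus kidney (limma adjusted p = 0.0194). The second call was lost without kidney 2 (limma adjusted p = 0.0734), kidney 3 (0.0694) or liver 1 (0.0655), and with median ratio scaling (0.0653). A fragmentary copy on the same scaffold shared 85.8% of aligned residues, so its reads may also have been divided.

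A pair of models was higher in heart than in both other organs. GOAT_ENSBTAP00000031243 (scaffold 1379, 94282 to 106380, minus strand) resembled plasminogen activator inhibitor 2, an inhibitor of urokinase that is best known from macrophages and placenta. It had 39.4, 70.4 and 76.5 FPKM in heart, 0.261, 0.808 and 4.14 in kidney and 0.0506, 0.743 and 2.66 in liver. All heart libraries lay above all others, and heart was 35.7 times kidney and 54.0 times liver by the means. The log2 difference was −5.01 ± 0.58 for liver minus heart (SE, limma adjusted p = 8.08e-05) and −4.74 ± 0.58 for kidney minus heart (limma adjusted p = 0.000103). Both calls held under all alternatives that tested the model. Liver and kidney overlapped (−0.27 ± 0.58, limma adjusted p = 0.704).

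The other heart model was close to the limit of expression. GOAT_ENSP00000372221 (scaffold 1525, 117314 to 134342, minus strand) resembled maspin, an epithelial serpin without inhibitory activity. It had 0.807, 1.66 and 0.832 FPKM in heart, 0.491, 0.579 and 0.170 in liver and 0.286, 0.468 and 0.593 in kidney. Heart did not overlap with the other organs, by margins below 1 FPKM. The log2 differences were −0.56 ± 0.20 for liver minus heart (SE, limma adjusted p = 0.0425) and −0.52 ± 0.20 for kidney minus heart (limma adjusted p = 0.0462). Without heart 2 these became −0.38 and −0.33 (limma adjusted p = 0.140 and 0.155). At least one of the 2 calls was also lost without liver 1, liver 2, liver 3, kidney 1, kidney 2 or kidney 3, with limma adjusted p from 0.0505 to 0.139.

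**Figure D3:**
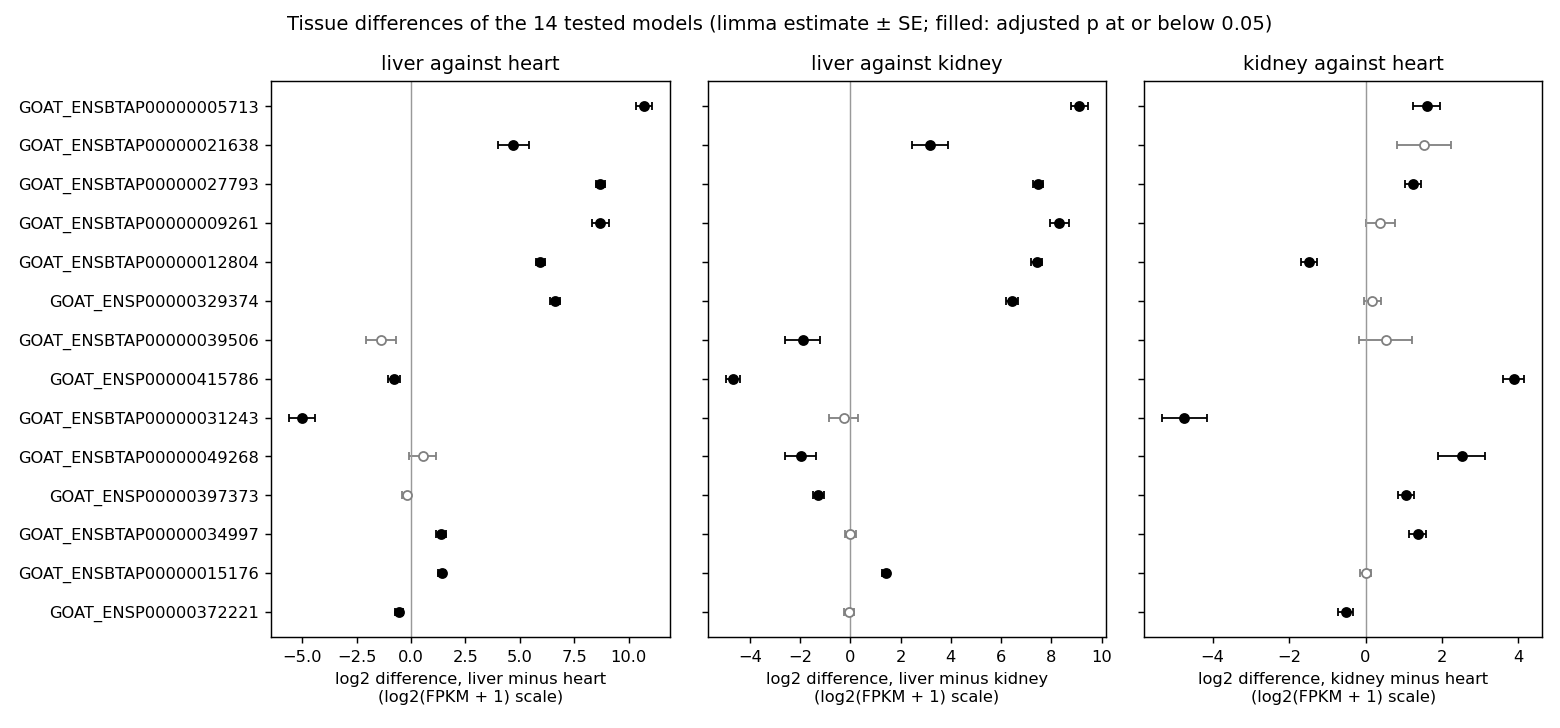
Log2 difference between tissues on the log2(FPKM + 1) scale (x axis of each panel) for the 14 models tested, as limma estimates with SE. Filled points have an adjusted p at or below 0.05. GOAT_ENSBTAP00000009261, GOAT_ENSP00000329374 and GOAT_ENSBTAP00000015176 passed the filter through liver alone. Their filled points in the 2 liver panels followed from the filter and are no evidence of a difference. Liver minus heart and liver minus kidney reach 10.71 and 9.11 in the model resembling antithrombin, and −5.01 and −4.68 in those resembling plasminogen activator inhibitor 2 and protease nexin-1.

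GOAT_ENSBTAP00000039506 was, with the one resembling C1 inhibitor, one of the models expressed at a mean of 22.9 FPKM or more in every organ, and liver was its lowest organ. It lies on scaffold 1048 (2000374 to 2005909, plus strand) and ends in RDEL like HSP47, which assists the folding of collagen. It had 26.9, 75.9 and 64.9 FPKM in heart, 6.98, 32.4 and 29.3 in liver and 31.2, 103 and 125 in kidney. Library 1 was the lowest in each organ, and the organs overlapped. The log2 difference was −1.90 ± 0.68 for liver minus kidney (SE, limma adjusted p = 0.0338), −1.38 ± 0.68 for liver minus heart (limma adjusted p = 0.125) and 0.52 ± 0.68 for kidney minus heart (limma adjusted p = 0.528). With the replicate number as a block, the 3 limma adjusted p were 8.12e-05, 0.000527 and 0.0394. The first call was lost without liver 1 (limma adjusted p = 0.116), kidney 2 (0.104) or kidney 3 (0.113) and with median ratio scaling (0.184), under which kidney minus heart changed sign to −0.15.

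The remaining models were 4. GOAT_ENSP00000341584 and GOAT_ENSP00000372218 were listed at 0 in every library. GOAT_ENSBTAP00000006956 had 1.5 FPKM in heart 1 and at most 0.0751 elsewhere, and none of these 3 passed the filter. GOAT_ENSBTAP00000034997 was the model reported with the signature only. It had 1.55, 1.65 and 2.33 FPKM in liver, 2.94, 1.37 and 1.41 in kidney and 0, 0.0573 and 0.229 in heart. It was higher in liver and in kidney than in heart, by 1.37 ± 0.23 in each case (SE, limma adjusted p = 0.000765 and 0.000608). Without it, 7 models were higher in liver than in heart and 5 were higher in kidney than in heart.

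The end of the protein and the position are given as a description, since the serine-proline end was picked with the levels known. In 5 models the protein ended in the residues serine and proline (29.4%, against 0.863% of models in the same length range), and these were the models of scaffolds 1379 and 1525. Of these, 4 lay on scaffold 1525 between 25809 and 134342. Of the 3 that were tested, 2 were elevated in heart (14.5% of all genes), 1 in kidney (34.2%) and 0 in liver (9.59%). With so few models nothing is read from these counts. The highest liver value of the 5 was 2.66 FPKM. Of the 12 others, 11 were tested, of which 7 were elevated in liver (9.59% of all genes) and 2 in kidney (34.2%). Within the group on scaffold 1525, GOAT_ENSBTAP00000049268 was highest in kidney, GOAT_ENSP00000372221 in heart, and GOAT_ENSP00000341584 and GOAT_ENSP00000372218, which lie between them, were listed at 0. Identity within this group reached 48.1%, between GOAT_ENSBTAP00000049268 and GOAT_ENSP00000341584. Of the 12 models with the hinge, 9 were tested and 5 were elevated in liver. Of the 5 without it, 5 were tested and 2 were elevated in liver, beside 9.59% of all genes. The 3 models that passed the filter through liver alone are among these elevated models. The hinge, too, was picked after the proteins and their levels had been viewed.

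Some models moved with the replicate number, as many genes did. Near the share over all genes (23.9%), library 1 was the lowest of its organ in heart, liver and kidney alike for 4 of the 14 models tested (28.6%). These were the models resembling C1 inhibitor, plasminogen activator inhibitor 2 and HSP47, and GOAT_ENSBTAP00000049268. Organ by organ, library 1 was the lowest for 8 models in heart (54.3% of all genes), 7 in liver (49.4%) and 7 in kidney (49.2%), shares near those of all genes. For GOAT_ENSBTAP00000021638, kidney 1 had 59.5 FPKM beside 239.5 and 303. The other liver models did not share this order, and GOAT_ENSBTAP00000005713 was highest in liver 1 and in kidney 1. With library 1 of all organs left out, a setting added once the values were known, 7 models were elevated in liver, 4 in kidney and 1 in heart. The 7 include the 3 models that passed the filter through liver alone. The share over all genes in that setting is not given here. The part of animal, sampling or library preparation in the replicate number was not tested.

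**Figure D4:**
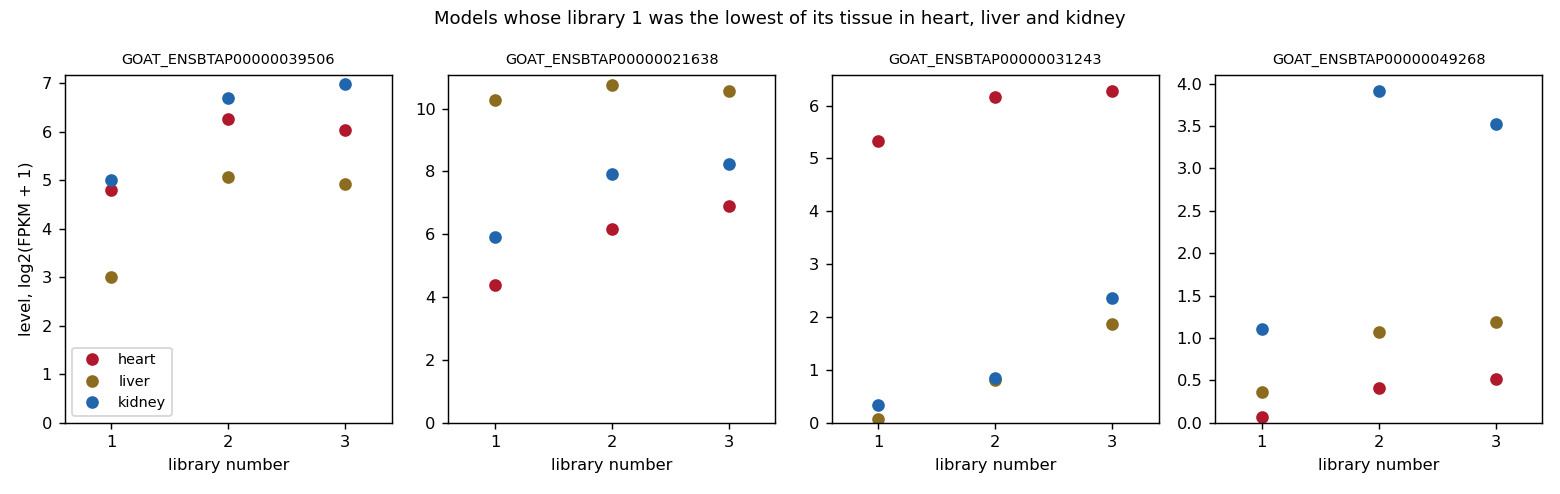
Level on the log2(FPKM + 1) scale (y axis, own scale per panel) against library number (x axis) for the 4 models whose library 1 was the lowest of its organ in heart, liver and kidney; colours are organs. In GOAT_ENSBTAP00000039506 the values for library 1 are 26.9, 6.98 and 31.2 FPKM in heart, liver and kidney, below 64.9, 29.3 and 103 in any other library of the same organ.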

How the data were processed

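Libraries were strand-specific (dUTP) and prepared from total RNA, per the labels. According to the study's methods, filtered reads were mapped with TopHat to CHIR_1.0 for goat and quantified with Cufflinks (2.2.1 per the submitters' processing notes, which list UMD3.1 as the build for goat samples too). The authors deposited values on the log2 scale, log2(FPKM + 1), per gene and library, and a file of goat protein sequences with scaffold, start, end and strand, whose last entry was cut off. Its build was not given in the sources used here. Tables of cattle and sheep (18 libraries) were not used here.

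The log was undone to give FPKM. Tissues were compared with limma 3.58.1 (R 4.3.3) on the genes that exceeded 0.5 FPKM in 3 libraries or more. The model held one coefficient for each organ, variances were moderated by eBayes with trend, and p was adjusted by Benjamini-Hochberg for each contrast, at a threshold of 0.05. The fit was also run on simulated data with independent libraries. Deviations shared by libraries of one number were not simulated, so that run says nothing about them. Shares were compared with exact permutation tests (scipy 1.17.1). Identity is from global alignments (Biopython 1.88, BLOSUM62) over aligned residues.

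The models and lists were chosen with earlier results of these data known. Models were named when their mean reached 10 FPKM in an organ (9) or when they were among the 3 largest called changes of a direction (2 more). The 6 others were described after their values were seen. The planned lists of target proteases, other inhibitors, partners, collagens and cell type markers need gene names and were not analysed here. The peptides, the hinge pattern and the serine-proline end were chosen after the proteins and their levels had been viewed, and an N-terminal hydropathy class was computed but not used. Libraries of one number deviated together from their organ means: Pearson's r across genes was 0.146 to 0.473 in all 9 pairs with the same number, and −0.417 to 0.134 in the 18 others. The study took several organs from each animal, but the labels do not say that a number marks an animal, and blocked values are given where they change a call. P-values otherwise measure the spread between these libraries.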

Additional observations from a re-analysis of the deposited data

How the results depend on the processing

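The number of models higher in liver than in heart stayed at 8 when any library was left out. The numbers higher in liver than in kidney and elevated in liver both stayed at 7. Quantile normalization raised these last 2 counts to 8, through GOAT_ENSBTAP00000034997, the model reported with the signature only. Its liver minus kidney difference was then 0.64 (limma adjusted p = 0.0250), beside 6.64e-05 in the main fit. Each of the liver counts includes the 3 models that passed the filter through liver alone. With the study's filter on low values, which left 4 models to test, these counts were 2, 2 and 2, the counts higher in heart were 1 against liver and 1 against kidney, those higher in kidney were 2 against liver and 1 against heart, and elevated models were 0 in heart and 1 in kidney. Models higher in heart than in liver fell from 3 to 1 with no filter, median ratio scaling, the same summed FPKM or a minimum log2 fold change of 1. Models higher in kidney than in liver fell from 4 to 2 with no filter, median ratio scaling and quantile normalization. Models elevated in heart fell from 2 to 1 with a pseudocount of 0.1, no filter, median ratio scaling (also with the block), the same summed FPKM, a minimum log2 fold change of 1, or without library 1 of all organs. The cause was not tested beyond the construction of the filters and of the minimum fold change. Leaving out one library gave 1 to 3 models higher in heart than in liver, 2 to 3 higher in heart than in kidney, 2 to 4 higher in kidney than in liver, 6 to 7 higher in kidney than in heart, 1 to 2 elevated in heart and 2 to 3 in kidney. The lowest count was 1 for heart over liver without heart 2, liver 1, liver 2, liver 3 or kidney 2, 1 for elevated in heart without heart 2 or any 1 of the liver or kidney libraries, and 2 for kidney over liver without liver 1, kidney 2 or kidney 3. Median ratio scaling moved the median over all tested genes from −0.69 to −0.01 for liver minus kidney and from 0.55 to 0.04 for kidney minus heart. The shares over all genes given above belong to the main fit. Those of the other settings are not given here, so a changed count of models cannot be told from a change over all genes.

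The difference in the models' share of summed FPKM was 0.769 to 0.811 percentage points for liver minus heart, 0.731 to 0.773 for liver minus kidney and 0.0236 to 0.0570 for kidney minus heart with one library left out. The share of the most abundant model was 0.248% to 0.346% in liver, 0.0235% to 0.0445% in kidney and 0.00563% to 0.0116% in heart. With the replicate number as a block, models higher in kidney than in heart rose from 6 to 8 and those higher in heart than in liver from 3 to 4. Paired by number, the differences in share were 0.796, 0.758 and 0.0382 points, each with an exact permutation p of 0.25. Blocked calls other than those given in the text were the same as without the block.

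Signs changed only in differences that were not called. Liver minus kidney of GOAT_ENSBTAP00000031243 became 0.0872 with median ratio scaling, with and without the block, 0.17 with quantile normalization, 0.15 without liver 1 and 0.32 without kidney 3, and reached −0.75 without liver 3. That of GOAT_ENSP00000372221 became 0.24 with median ratio scaling (0.24 with the block), 0.32 with quantile normalization, 0.088 without liver 3 and 0.03 without kidney 3, and reached −0.13 without liver 2. Kidney minus heart of GOAT_ENSBTAP00000039506 became −0.15 with median ratio scaling, with and without the block. The fit without library 1, the scaling with the block and the paired test of the shares were added once the values were known. The depth of the libraries is unknown, so values listed at 0 carry no upper limit.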

Other observations

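Serpin-like models outside the length and copy limits were also expressed, above all in liver. On scaffold 1665, the copy GOAT_ENSBTAP00000009261-D2 (17933 to 24231, plus strand) had 3787, 4643 and 5076 FPKM in liver, 3.74, 2.76 and 0.857 in kidney and 0, 0.0563 and 0 in heart. It was thus more abundant in liver than any of the 17 models. The next model on that strand, goat_GLEAN_10000493 (27143 to 48273, 255 residues), had 539, 589 and 658 FPKM in liver, at most 0.592 in kidney and was listed at 0 in heart. A short model of 102 residues, goat_GLEAN_10000491, did not exceed 0.443 FPKM in any library. These 3 and GOAT_ENSBTAP00000009261 shared 53.5% to 75.5% of aligned residues between pairs.

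Among the models on scaffolds 1379 and 1525, the copy GOAT_ENSBTAP00000031243-D2 had 1.91, 4.19 and 3.13 FPKM in heart, 1.96, 0.992 and 2.13 in liver and 1.57, 2.79 and 7.28 in kidney, all overlapping, although its neighbour GOAT_ENSBTAP00000031243 was high in heart. The fragment GOAT_ENSBTAP00000046404-D2 had 0.733, 5.76 and 9.95 FPKM in kidney and at most 0.718 in the other organs, with kidney 1 again the lowest kidney library, as in its relative GOAT_ENSBTAP00000049268. Copies of this kind may share reads with the models they resemble, and the cause of the likeness in level was not tested.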
